A study of Mus musculus with 9 samples.

Results

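The genes described here are 9 genes of HGF, PDGF, FGF and VEGF signalling in cultured mouse synovial fibroblasts (SFs), the cells that line and support the joint. They are Hgf, Met, Pdgfra, Pdgfrb, Fgf2, Fgf7, Fgf10, Vegfa and Vegfc. They were taken by gene symbol from the 49548 genes of the deposited tables, and each matched 1 row. The choice was made with earlier results of these data known. SFs came from ankle joints of WT mice and of hTNFtg mice, which carry a transgene for human TNF and develop arthritis, all 8 weeks old and of CBA C57BL/6J background. The 9 libraries are 3 of WT SFs, 3 of untreated hTNFtg SFs and 3 of hTNFtg SFs given infliximab, an antibody to human TNF, at 1 µg/mL for 48 hours. The labels give no treatment for WT and untreated hTNFtg SFs, where the methods describe vehicle for 48 hours. All cultures had been depleted of CD45+ cells at passage 1, and the methods call the 3 cultures of a group biological replicates.

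The 9 genes belong to 4 receptor tyrosine kinase systems. HGF, a factor made mainly by mesenchymal cells, is cleaved by serine proteases and then activates its receptor MET, chiefly on epithelial cells. PDGF ligands act on fibroblasts and mural cells through PDGFRA and PDGFRB. FGF2 binds several FGF receptors, whereas FGF7 and FGF10 signal to epithelium through a splice form of FGFR2. VEGFA drives blood vessel growth through KDR, and VEGFC drives lymphatic vessel growth through FLT4. These receptors feed the RAS-ERK cascade, whose own target genes include inhibitors such as DUSP6 and the SPRY proteins. In the joint the ligands are studied for the growth of the inflamed synovium and of its vessels.

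Levels are given as normalized counts, the reads on a gene after the authors' scaling of each library. Reads were taken near the 3′ end of transcripts, so they do not grow with gene length. The libraries held about 613343 to 9015119 reads on genes. The lowest, hTNFtg replicate 1, was covered 6.24 to 14.7 times less deeply than the others, and 1 read is worth 6.23 normalized counts in it against 0.534 to 1.10 elsewhere. A count of 3 reads, taken as the floor of detection, stands at 18.7 normalized counts in that library and at 1.60 to 3.31 in the others. Mouse Tnf was at 1, 4 and 7 in WT, at 25, 24 and 24 in hTNFtg and at 29, 15 and 10 with infliximab. The human transgene was not analysed here.

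The fibroblast markers, 12 genes such as Col1a1, Thy1 and Pdpn, summed to 50538 to 60999 in WT, 45025 to 56757 in hTNFtg and 44286 to 51947 with infliximab. Of these 12, 1 rose and 1 fell in hTNFtg against WT, and Pdpn was at 852 to 982 in WT and at 1987 to 5582 in hTNFtg. Of 15 rows of macrophage markers, 11 rose and 0 fell in hTNFtg against WT, and their sum went from 212 to 791 in WT to 3433 to 7784, with 2283 to 4719 under infliximab. None of them was at 0 in every library, and Cd163 did not exceed 3. Of 9 chondrocyte markers tested, 5 fell and 0 rose, the sum going from 6464 to 9733 in WT to 903 to 1570 in hTNFtg and 1216 to 2911 with infliximab. Endothelial markers were nearly absent: Pecam1, Cdh5, Cldn5 and Tie1 did not exceed 3 in any library, and Egfl7 alone made up most of the list. Osteoclast markers summed to 157 to 341, 324 to 480 and 274 to 662 in WT, hTNFtg and infliximab-treated SFs, mural markers to 1848 to 3459, 4089 to 5151 and 3465 to 4859, and epithelial markers to 10 to 12, 12 to 23 and 22 to 41. Of the 7 osteoclast markers tested in hTNFtg against WT, 3 rose and 0 fell. Hepatocyte genes summed to 1179 in infliximab replicate 3 and to at most 177 in the other libraries, with Alb at 265 in that library. The part of these other cells in the results was not tested, and in such bulk samples fewer cells of a type and less RNA per cell cannot be told apart.

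In hTNFtg against WT SFs, Vegfc and Fgf7 rose and Hgf fell, whereas Met, Pdgfra, Pdgfrb, Fgf2, Fgf10 and Vegfa did not pass. A gene was called raised or lowered at the cutoffs of the study, an unadjusted P under 0.05 and a change of 2-fold or more (1 on the log2 scale). The study applied them to a DESeq test of read counts, and here they were applied to limma on log2 of the normalized count plus 1, since the values are already normalized and rounded. Of the 9 genes 2 were raised and 1 was lowered, where 3.35% and 3.04% of all 28522 genes tested were. Among the 13634 genes with a mean of at least 10 these shares were 4.96% and 4.03%. At an adjusted p under 0.05 only Vegfc passed in this fit, as did 0.480% of all genes. The values of the 2 groups did not overlap for Fgf7 and Vegfc, both higher, and for Hgf and Pdgfrb, both lower, compared with 5.63% and 5.80% of all genes.

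Infliximab raised Hgf and called no other of the 9 genes. That is 1 gene raised and 0 lowered, against 1.49% and 0.936% of 28540 genes tested. The adjusted p of this limma fit was under 0.05 for no gene of the table (0%), although 1026 genes had an unadjusted P under 0.05. Other fits had such genes, 67 raised and 98 lowered with edgeR on approximate reads, 17 and 48 with array quality weights, and 0 and 3 with robust eBayes as with all 9 libraries in one fit, none of the 9 among them. Hgf and Pdgfrb lay wholly above the untreated hTNFtg libraries, as 3.99% of genes did, and Vegfc wholly below, as 3.44% did. In infliximab-treated hTNFtg against WT SFs, Vegfc alone was raised and 0 genes were lowered, against 3.86% and 2.95% of 28243 genes. None of the 9 genes passed the adjusted threshold there in this fit, which 0.740% of genes did, and Vegfc passed it in 5 of 17 fits. Vegfc and Fgf7 were higher without overlap, as 7.14% of genes were, and none was lower, where 7.07% were. The 3 comparisons share libraries and are not independent of each other.

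The stretch before the transcription start of the 3 called genes is shown here, since these are the genes whose level moved. The sequences are the 250 bases upstream of the start in RefSeq for build GRCm38.p6, which is mm10, written 5′ to 3′ on the coding strand, and none of these windows overlaps an annotated exon.
Hgf, chr5:16553245-16553494, strand +: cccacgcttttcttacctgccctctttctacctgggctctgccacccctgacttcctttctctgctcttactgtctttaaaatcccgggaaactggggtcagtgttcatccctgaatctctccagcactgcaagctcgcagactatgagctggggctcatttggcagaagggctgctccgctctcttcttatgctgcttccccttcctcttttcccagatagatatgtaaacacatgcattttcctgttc
Fgf7, chr2:126034408-126034657, strand +: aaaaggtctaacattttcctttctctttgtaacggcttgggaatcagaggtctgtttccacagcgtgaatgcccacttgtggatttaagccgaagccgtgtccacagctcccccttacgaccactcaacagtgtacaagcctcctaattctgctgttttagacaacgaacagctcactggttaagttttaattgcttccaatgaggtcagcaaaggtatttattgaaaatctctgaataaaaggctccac
Vegfc, chr8:54077282-54077531, strand +: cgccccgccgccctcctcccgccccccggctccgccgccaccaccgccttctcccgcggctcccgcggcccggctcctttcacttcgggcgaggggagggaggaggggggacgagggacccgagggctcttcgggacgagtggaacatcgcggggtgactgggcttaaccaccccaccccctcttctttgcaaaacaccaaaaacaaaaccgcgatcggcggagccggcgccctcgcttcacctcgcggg

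Motifs of factors tied to inflammation and low oxygen were searched on both strands in these windows, 3 in all, AP-1 (TGANTCA), the hypoxia response core (ACGTG) and the NF-kB consensus. Matches would be in capitals, and none of the 3 windows holds any. Of all 32851 promoter windows of this length, 6.75% hold the AP-1 motif, 16.6% the hypoxia core and 7.25% the NF-kB consensus. RefSeq windows were matched for 8 of the 9 genes, and Hgf has another window (51.2% GC), not shown because it overlaps annotated exons, which holds no match either. Among the others, the window of Met holds an AP-1 match 54 bases before the start and a hypoxia core, and of the windows of Vegfa, 1 holds an NF-kB match that begins 118 bases before its start and another a hypoxia core 211 bases before its own, and the window of Met and this last one overlap annotated exons. The GC content of the windows shown was 50.8% for Hgf, 43.6% for Fgf7 and 71.6% for Vegfc, with a median of 52.4% over all windows.

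Hgf (ENSMUSG00000028864, chr5:16553495-16620152, plus strand, protein coding) codes for the ligand of MET. Its normalized counts were 63, 49 and 34 in WT, 12, 11 and 8 in hTNFtg and 39, 39 and 37 in infliximab-treated hTNFtg SFs. All 3 hTNFtg values lie below all others, and the infliximab values lie inside the WT range. The means were 48.7 ± 14.5, 10.3 ± 2.08 and 38.3 ± 1.15 (SD, n = 3). The WT mean was thus 4.71 times the hTNFtg mean, with a log2 fold change of -2.11 (SE 0.51, 95% CI -3.23 to -0.98, adjusted p = 0.130). Over the alternatives the adjusted p ranged from 0.00358 to 0.608 and was under 0.05 in 4 of 17 fits. The value in hTNFtg replicate 1 rests on 2 reads, whose exact Poisson interval runs from 1.51 to 45.0 normalized counts, while the other hTNFtg libraries gave 13 and 15 reads. Without that library the log2 fold change was -2.21.

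With infliximab the Hgf mean was 3.71 times that of untreated hTNFtg SFs, with a log2 fold change of 1.81 (SE 0.53, 95% CI 0.67 to 2.95, adjusted p = 0.803). It met the rule in each alternative run, the log2 fold change staying between 1.51 and 1.97, and its adjusted p ranged from 0.0679 to 0.914. Without infliximab replicate 3, where hepatocyte genes stood out, the difference was 1.84. Against WT, Hgf in treated SFs differed by -0.29 (95% CI -0.95 to 0.36, adjusted p = 0.646) on the log2 scale. Chondrocyte markers move with Hgf over the groups, 5 of 9 lowered in hTNFtg SFs and 3 of 10 raised by infliximab, with Comp at 4373 to 7288, 299 to 848 and 573 to 1933 in WT, untreated and treated SFs. Their part in the Hgf values was not tested. Intervals from reads cover counting error only.

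Met (ENSMUSG00000009376, chr6:17463800-17573980, plus strand), the HGF receptor gene, was close to the floor. It had 5, 12 and 4 normalized counts in WT, 19, 7 and 10 in hTNFtg and 8, 8 and 4 with infliximab, from 3 to 19 reads in a library. The groups overlap in every comparison. The log2 fold change was 0.72 in hTNFtg against WT (95% CI -0.97 to 2.42, adjusted p = 0.726), -0.71 with infliximab (95% CI -2.40 to 0.99) and 0.02 in treated hTNFtg against WT SFs, so a difference was not detectable at this depth.

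Around HGF, 12 genes of ligand processing and inhibition were followed, most of them low. Of the 11 tested in hTNFtg against WT, 1 rose and 0 fell, with a median log2 fold change of 0.21 against -0.0034 over all genes. The gene that rose was Spint2, an inhibitor of HGF-activating proteases, at 3, 0 and 1 in WT, 6, 10 and 10 in hTNFtg and 0, 2 and 2 with infliximab. With infliximab it was lowered (-2.19, adjusted p = 0.803). Most of its values stand at a few reads, and its mean is under 10. Plau and Plat, which code for the plasminogen activators, were at 16 to 42 and 78 to 92 in WT and at 25 to 59 and 83 to 125 in hTNFtg, and neither passed. In treated hTNFtg against WT SFs Tmprss13, a membrane serine protease, was lowered, with 39, 17 and 34 in WT and 22, 12 and 4 in treated SFs (log2 fold change -1.36, SE 0.59, adjusted p = 0.402). That call was lost without any single library but infliximab replicate 1, with values of -1.71 to -0.76, and with a pseudocount of 5 (-1.06) or array quality weights (-0.998). F2, prothrombin, was at 127 in infliximab replicate 3, the library with the hepatocyte genes, and at 5 or less elsewhere.

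Vegfc (ENSMUSG00000031520, chr8:54077606-54187096, plus strand) codes for the lymphatic growth factor VEGF-C. It stood at 43, 28 and 20 in WT, 149, 138 and 293 in hTNFtg and 96, 69 and 137 with infliximab. No group overlaps another, the order being WT, treated and untreated, but the highest treated value (137) is 1 normalized count under the lowest untreated one (138), and their counting intervals of 118 to 159 and 117 to 161 nearly coincide. The means were 30.3 ± 11.7, 193 ± 86.5 and 101 ± 34.2 (SD, n = 3). The hTNFtg mean was 6.37 times that of WT, with a log2 fold change of 2.61 (SE 0.42, 95% CI 1.70 to 3.53, adjusted p = 0.0235). Leaving out any library gave 2.27 to 2.89, and the adjusted p ranged from 4.11e-08 to 0.505 over the alternatives, being under 0.05 in 10 of 17 fits.

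With infliximab, Vegfc differed from untreated hTNFtg SFs by -0.90 on the log2 scale (SE 0.37, 95% CI -1.70 to -0.11, adjusted p = 0.803), just short of the fold that the rule asks. Without hTNFtg replicate 2 it was -1.10 and without infliximab replicate 3 it was -1.15, both past the rule, and without hTNFtg replicate 3 it was -0.56. Treated SFs stayed above WT, with a mean 3.32 times as high and a log2 fold change of 1.71 (SE 0.35, 95% CI 0.93 to 2.49, adjusted p = 0.0688, with a range of 4.21e-06 to 0.407 over the alternatives). Of the 15 rows of macrophage markers, 11 rose with Vegfc in hTNFtg against WT, and 2 were lowered by infliximab. Their sums overlap between untreated and treated SFs, at 3433 to 7784 and 2283 to 4719. Endothelial markers other than Egfl7 were near 0 throughout. The part of macrophages was not tested.

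Vegfa (ENSMUSG00000023951, chr17:46016993-46032369, minus strand) was well read in all libraries, with 657, 444 and 335 in WT, 336, 656 and 386 in hTNFtg and 521, 532 and 657 with infliximab. Its groups overlap and no comparison passed. The log2 fold change was -0.07 in hTNFtg against WT (95% CI -0.85 to 0.72, adjusted p = 0.966), 0.37 with infliximab (95% CI -0.31 to 1.04) and 0.30 in treated hTNFtg against WT SFs (95% CI -0.26 to 0.85). Its direction in hTNFtg against WT turned to 0.38 with array quality weights. Within each library, a ratio that no scaling factor can move, Vegfc was at 0.0654, 0.0631 and 0.0597 of Vegfa in WT, at 0.443, 0.21 and 0.759 in hTNFtg and at 0.184, 0.13 and 0.209 with infliximab. All hTNFtg ratios lie above all WT ratios, and the treated ratios lie above WT and below the untreated ones, the closest being 0.209 and 0.21.

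The other VEGF ligands did not pass in any of the 3 comparisons as fitted here. Vegfd, a relative of Vegfc with the same receptor, was the most abundant of them, at 673, 243 and 269 in WT, 299, 212 and 56 in hTNFtg and 316, 316 and 221 with infliximab (log2 fold change in hTNFtg against WT -1.20, SE 0.58, adjusted p = 0.684). Vegfd met the cutoffs as lowered in that comparison with edgeR on approximate reads (-1.17, adjusted p = 0.0774) and with limma on all 9 libraries (-1.20, adjusted p = 0.444). Vegfb was at 52 to 72 in WT and 46 to 64 in hTNFtg, and Pgf did not exceed 19. Of the receptors, Kdr did not exceed 3 and Flt1 did not exceed 13 in any library. Flt4, the VEGFC receptor, was at 36, 26 and 9 in WT and at 12, 27 and 33 in hTNFtg. Of 5 receptors and co-receptors tested in hTNFtg against WT, 1 rose, namely Nrp2, a co-receptor for VEGFC, with 191, 308 and 279 in WT, 486, 598 and 488 in hTNFtg and 361, 462 and 408 with infliximab (log2 fold change 1.03, SE 0.30, adjusted p = 0.225). Without WT replicate 1 it was 0.83 and without hTNFtg replicate 2 it was 0.935, both short of the rule, as was 0.964 with edgeR. Nrp1, the relative that binds VEGFA, had 0.57 (adjusted p = 0.726).

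**Figure D1:**
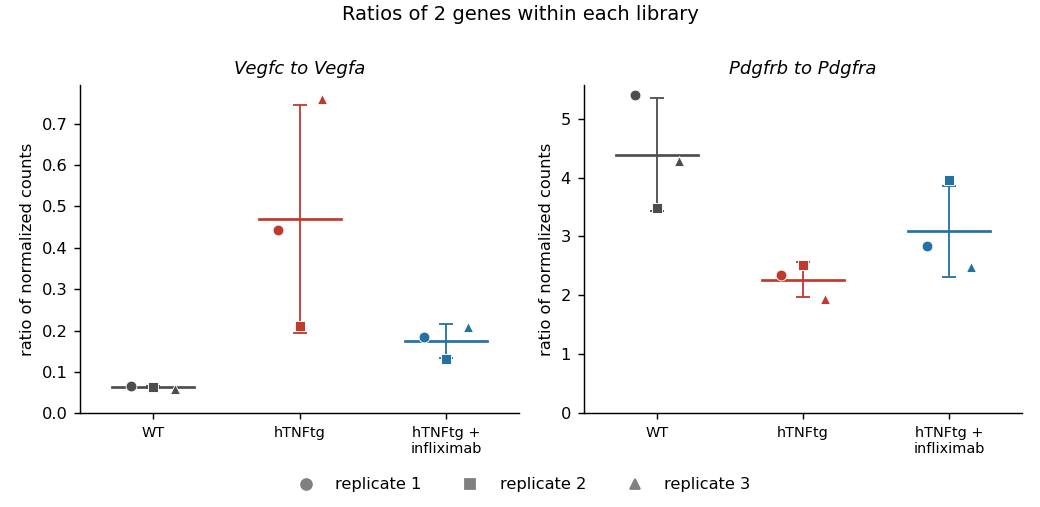
Ratio of the normalized counts of 2 genes in the same library (y axis, from 0), Vegfc to Vegfa on the left and Pdgfrb to Pdgfra on the right, by group, with points for libraries, bars for means and whiskers for SD. Vegfc to Vegfa is 0.0597 to 0.0654 in WT and 0.21 to 0.759 in hTNFtg SFs.

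Pdgfra (ENSMUSG00000029231, chr5:75152292-75198215, plus strand), the receptor gene that also marks fibroblasts, was level across groups. It had 217, 243 and 184 in WT, 249, 235 and 238 in hTNFtg and 228, 210 and 325 with infliximab. Log2 fold changes were 0.17 (95% CI -0.43 to 0.77, adjusted p = 0.809), 0.05 (95% CI -0.55 to 0.66, adjusted p = 0.984) and 0.23 (95% CI -0.26 to 0.71, adjusted p = 0.646) in hTNFtg against WT, with infliximab, and in treated hTNFtg against WT SFs. Each of these intervals leaves out a 2-fold change in either direction.

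Pdgfrb (ENSMUSG00000024620, chr18:61045150-61085061, plus strand), the second PDGF receptor gene, had the highest mean of the 9 genes in each group. It had 1172, 847 and 787 in WT, 585, 591 and 462 in hTNFtg and 646, 829 and 807 with infliximab. All hTNFtg values lie below all WT and all treated values, and treated and WT values overlap. The hTNFtg difference was -0.76 on the log2 scale (SE 0.30, 95% CI -1.42 to -0.10, adjusted p = 0.515), short of the fold the rule asks, and the WT mean was 1.71 times the hTNFtg mean. With infliximab the difference was 0.48 (95% CI -0.13 to 1.08, adjusted p = 0.803). The ratio of Pdgfrb to Pdgfra within a library was 5.4, 3.49 and 4.28 in WT, 2.35, 2.51 and 1.94 in hTNFtg and 2.83, 3.95 and 2.48 with infliximab. Ratios in WT and hTNFtg SFs do not overlap. Of 7 mural markers tested in hTNFtg against WT, 1 was lowered and 0 were raised. Rgs5 moved with Pdgfrb, at 26, 31 and 25 in WT, 0, 3 and 4 in hTNFtg and 13, 21 and 9 with infliximab. Its 0 stands in hTNFtg replicate 1, where the floor is 18.7. Acta2 was at 1427 to 3203, 3653 to 4684 and 2968 to 4290. Log2 fold changes in hTNFtg against WT were 0.91 for Acta2, 0.63 for Cspg4 and 0.62 for Mcam. They were -0.79 for Notch3, -1.135 for Abcc9 and -1.27 for Des.

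Of the 5 genes of PDGF ligands and the related Pdgfrl, 2 rose and 0 fell in hTNFtg against WT. Of all genes tested, 3.35% and 3.04% did. The median log2 fold change of the 5 was 0.60. Pdgfb, which codes for a ligand of both receptors, was at 4, 4 and 3 in WT, 37, 12 and 24 in hTNFtg and 18, 4 and 33 with infliximab. Its hTNFtg mean was 6.64 times that of WT (log2 fold change 2.32, SE 0.73, adjusted p = 0.295), and treated SFs met the rule against WT as well (1.67, adjusted p = 0.395), although that call was lost without any single library but infliximab replicate 2, with values of 1.07 to 1.72 against 2.45 without that one, and with quantile normalization (1.56) or array quality weights (1.40). Pdgfa, the ligand of PDGFRA, was at 212, 218 and 167 in WT, 417, 349 and 486 in hTNFtg and 310, 235 and 304 with infliximab (log2 fold change 1.06, SE 0.28, adjusted p = 0.193), and missed the rule without WT replicate 3 (0.941) or hTNFtg replicate 3 (0.945) and with array quality weights (0.859). The macrophage markers rose in the same libraries, and macrophages are a known source of PDGF-B. Their part in these values was not tested.

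Fgf7 (ENSMUSG00000027208, chr2:126034658-126091185, plus strand), keratinocyte growth factor, is a ligand that fibroblasts send to epithelium. It was at 71, 51 and 82 in WT, 268, 143 and 96 in hTNFtg and 123, 96 and 120 with infliximab. WT values lie below all others, and treated values lie within the hTNFtg range. The means were 68.0 ± 15.7, 169 ± 88.9 and 113 ± 14.8 (SD, n = 3). The hTNFtg mean was 2.49 times that of WT, with a log2 fold change of 1.20 (SE 0.41, 95% CI 0.31 to 2.09, adjusted p = 0.370, ranging from 0.0362 to 0.831 over the alternatives). The call depended on single libraries: it was lost without WT replicate 2 (1.01) and without hTNFtg replicate 1 (0.80), the shallow library with the highest value. Infliximab gave -0.46 (95% CI -1.25 to 0.34, adjusted p = 0.803), and treated against WT SFs gave 0.74 (95% CI 0.20 to 1.29, adjusted p = 0.245), under the fold of the rule.

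Fgf10 (ENSMUSG00000021732, chr13:118669791-118792115, plus strand), a close relative of Fgf7, was near the floor at 5, 7 and 9 in WT, 0, 8 and 20 in hTNFtg and 9, 11 and 8 with infliximab. A value of 0 in hTNFtg replicate 1 allows up to 18.7 normalized counts by the floor of 3 reads, and up to 23.0 by the exact Poisson interval used for Hgf. The group means were 7.00, 9.33 and 9.33, and the sign of its log2 fold change in hTNFtg against WT turned from -0.45 to 0.65 with edgeR on approximate reads, so no direction can be read.

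Fgf2 (ENSMUSG00000037225, chr3:37348346-37410108, plus strand), basic FGF, was at 31, 52 and 56 in WT, 44, 73 and 153 in hTNFtg and 88, 43 and 85 with infliximab. Its groups overlap, and the log2 fold change in hTNFtg against WT was 0.80 (SE 0.48, 95% CI -0.25 to 1.85, adjusted p = 0.726). Without hTNFtg replicate 1 it met the rule (1.22), so the genes then called were Hgf, Vegfc and Fgf2. It was 0.33 without hTNFtg replicate 3, the library with the highest value, and 0.54 without WT replicate 1. The label Fgf2 carries a limit, however. The gene Nudt6 lies on the opposite strand at chr3:37404910-37420211, ends inside Fgf2 and shares exon sequence with it between 37404910 and 37409562. Nudt6 was listed at 29, 50 and 48 in WT, 44, 69 and 139 in hTNFtg and 82, 41 and 80 with infliximab, which is 85.7% to 100% of the Fgf2 value of the same library. The methods do not state that counting used the strand, so reads of Fgf2 and Nudt6 cannot be told apart, and the values belong to the pair. Of the other 8 genes, Hgf, Pdgfra and Fgf10 share exon sequence with other annotated genes. Gm43489 held at most 50% of the Hgf value and Gm16263 at most 22.2% of Fgf10. At Pdgfra, Gm42802 held at most 11.4% of its value, Mir7025 5.98% and Gm42803 2.17%.

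**Figure D2:**
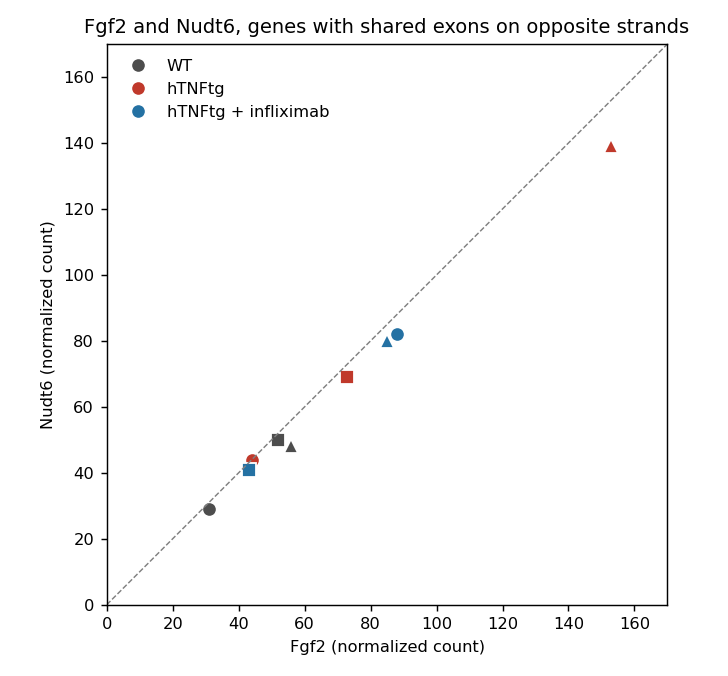
Normalized count of Nudt6 (y axis) against Fgf2 (x axis) in each of the 9 libraries, coloured by group and with the replicate as the symbol (circle for 1, square for 2, triangle for 3), where the dashed line marks equal values. Every point lies on or just under the line, at 85.7% to 100% of Fgf2.

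**Figure D3:**
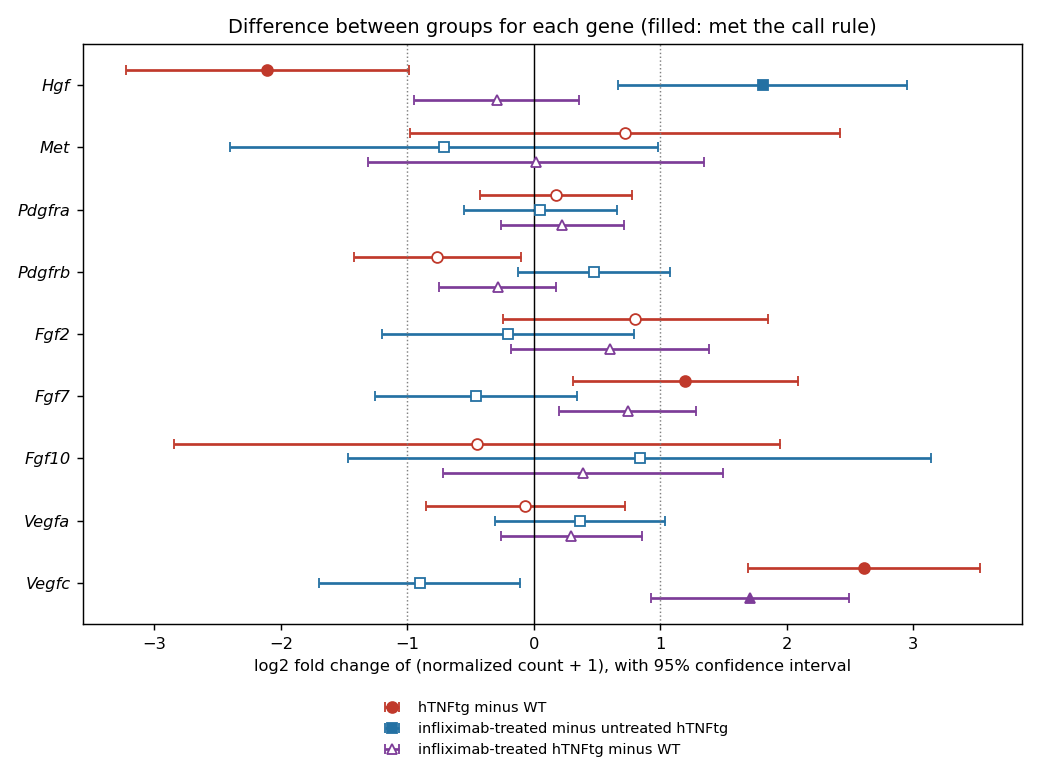
Log2 fold change of the normalized count plus 1 (x axis) with its 95% confidence interval for each of the 9 genes (y axis) in the 3 comparisons, where filled symbols met the rule and dotted lines mark a 2-fold change. Hgf lies at -2.11 in hTNFtg against WT and at 1.81 with infliximab, and Vegfc lies at 2.61 and -0.90.

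Of the FGF receptor genes, Fgfr2 and Fgfr3 fell in hTNFtg SFs, whereas Fgfr1 did not pass. Of 7 FGF receptors and binding proteins tested in hTNFtg against WT, 0 rose and 3 fell, where 3.35% and 3.04% of all genes did. Their median log2 fold change was -0.30. Among the 4 with a mean of at least 10, which include the 3 that fell, the median was -2.28. Fgfr2, whose epithelial splice form is the receptor of FGF7 and FGF10, had 289, 243 and 380 in WT, 56, 50 and 15 in hTNFtg and 77, 78 and 46 with infliximab (log2 fold change -3.06, SE 0.47, adjusted p = 0.0192). Gene counts do not tell its splice forms apart, and a neighbour that shares some of its exons, Ctbp2, did not follow it, at 148 to 201 in WT and 143 to 272 in hTNFtg. Fgfr3 had 88, 57 and 94 in WT, 0, 8 and 2 in hTNFtg and 6, 14 and 5 with infliximab (-4.72, SE 0.80, adjusted p = 0.0278). Its 0 stands in hTNFtg replicate 1, where the floor is 18.7, and the log2 fold change was -3.92 without that library, -5.51 without hTNFtg replicate 2 and -3.43 with a pseudocount of 5, called in each. Fgfrl1, a receptor relative without a kinase domain, had 320, 231 and 347, then 100, 113 and 98, then 123, 144 and 110 (-1.50, SE 0.29, adjusted p = 0.0558). None of these 3 genes overlaps between WT and either hTNFtg group. Of all genes tested, 5.80% were lower without overlap in untreated and 7.07% in treated hTNFtg against WT SFs.

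All 3 genes were also lowered in treated hTNFtg against WT SFs, with log2 fold changes of -2.18 for Fgfr2 (adjusted p = 0.017), -3.20 for Fgfr3 (adjusted p = 0.0180) and -1.23 for Fgfrl1 (adjusted p = 0.0390). Infliximab against no treatment gave 0.88 for Fgfr2, 1.52 for Fgfr3 and 0.27 for Fgfrl1 (each adjusted p = 0.803), none of which passed. Fgfr1, the main receptor of mesenchymal cells, was at 332, 255 and 229 in WT, 573, 384 and 255 in hTNFtg and 446, 362 and 411 with infliximab, and did not pass (0.51, adjusted p = 0.726). Fgfr4 was listed at 0 in all libraries. The chondrocyte markers Sox9 (1160, 1761 and 1939 in WT against 174, 272 and 179 in hTNFtg) and Comp (5353, 4373 and 7288 against 299, 848 and 550) were lower in the same libraries, whereas Col2a1 was at 51 to 94 and 37 to 88. Their part in the fall of the receptors was not tested.

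Most of the 19 other FGF ligands were at or near 0. Of the 15 tested in hTNFtg against WT, 1 rose and 1 fell, and only 3 had a mean of at least 10. Fgf9 rose, with 8, 4 and 2 in WT, 75, 37 and 19 in hTNFtg and 41, 16 and 13 with infliximab (log2 fold change 2.91, SE 0.74, adjusted p = 0.154), and stayed higher than WT in treated SFs (2.07, adjusted p = 0.196). The gene that fell was Fgf22, which did not exceed 2 in any library. Fgf13, which codes for an intracellular relative that is not secreted, was lowered by infliximab, with 44, 9 and 5 in untreated and 1, 3 and 2 in treated hTNFtg SFs (-2.27, SE 0.96, adjusted p = 0.803), and the call was lost without any single treated library (-2.51 to -2.01) and in the fit of genes with a mean of at least 10. It was -1.43 without hTNFtg replicate 1, the shallow library with the 44, and -2.88 without hTNFtg replicate 3. It stood at 2, 4 and 2 in WT. The ligand gene Fgf18 was raised by infliximab by the rule (1.33), but did not exceed 3 in any library.

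**Figure D4:**
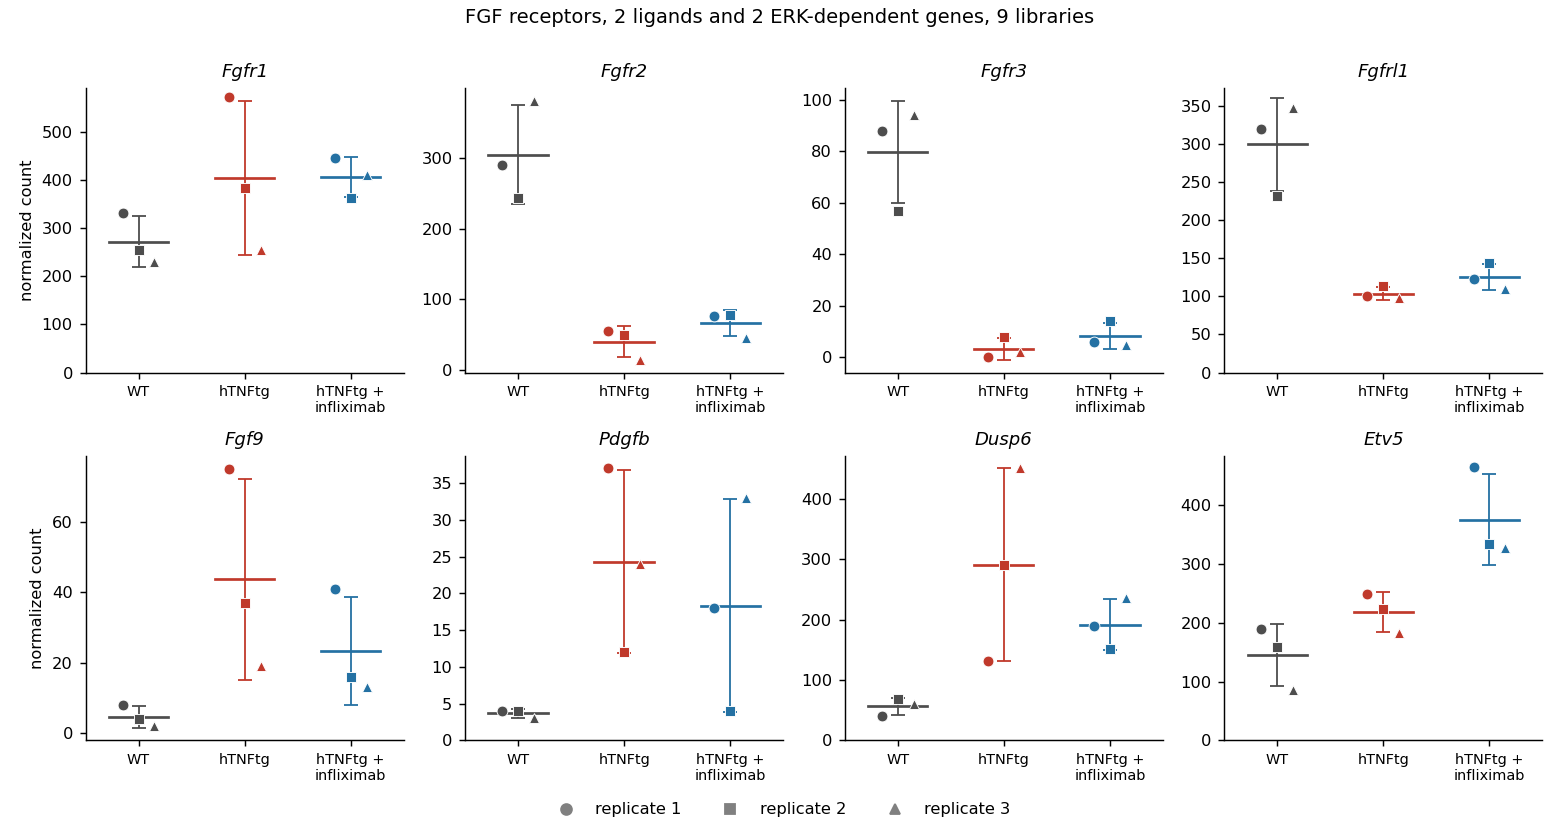
Normalized counts (y axis, scale differing between panels) of 4 FGF receptor genes, the ligands Fgf9 and Pdgfb and the ERK-dependent genes Dusp6 and Etv5 in the 3 groups, with points for libraries, bars for means and whiskers for SD. Fgfr2 is at 243 to 380 in WT and at 15 to 78 in the 6 hTNFtg libraries, and Dusp6 is at 40 to 68 in WT and 131 to 451 in those 6.

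Of 9 co-receptors that carry or can carry heparan sulphate, on which FGF, HGF and VEGF bind, 1 rose and 1 fell in hTNFtg against WT, with a median log2 fold change of 0.06. Cd44, the hyaluronan receptor whose variant forms present growth factors, rose, with 228, 319 and 269 in WT, 922, 759 and 728 in hTNFtg and 552, 526 and 605 with infliximab (1.56, SE 0.28, adjusted p = 0.0385). Cd44 is also made by macrophages. Treated SFs were higher than WT as well (1.05, adjusted p = 0.0394), although short of the fold without WT replicate 1 (0.933) or infliximab replicate 3 (0.997) and with array quality weights (0.944). The glypican Gpc6 fell, with 156, 136 and 172 in WT, 37, 60 and 74 in hTNFtg and 101, 120 and 66 with infliximab (-1.47, SE 0.35, adjusted p = 0.121). Among 13 adaptors and proximal effectors, 1 rose and 1 fell, with a median of -0.17. Gab1, a docking protein that MET and other receptors use, fell (82, 57 and 81 in WT against 19, 35 and 53, -1.11, adjusted p = 0.516), but not without hTNFtg replicate 1 (-0.73) or 2 (-1.16), nor without WT replicate 1 or 3 (-1.03 each), nor with edgeR (-0.97) or array quality weights (-0.935). Its relative Gab2 rose (89, 85 and 66 against 112, 161 and 231, 1.01, adjusted p = 0.376), and missed the rule without hTNFtg replicate 3 (0.75) or WT replicate 3 (0.88), with a pseudocount of 5 (0.977) and with quantile normalization (0.98).

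Among 13 feedback inhibitors, 4 rose and 0 fell in hTNFtg against WT, where 3.35% and 3.04% of all genes tested did. Their median log2 fold change was 0.86. Dusp6, the ERK phosphatase, had 40, 68 and 61 in WT, 131, 291 and 451 in hTNFtg and 189, 151 and 236 with infliximab. Its hTNFtg mean was 5.17 times that of WT (2.21, SE 0.44, adjusted p = 0.0607). Errfi1 had 15, 13 and 21, then 100, 49 and 85, then 28, 35 and 70 (2.15, SE 0.45, adjusted p = 0.0740), and Lrig1 had 11, 18 and 19, then 50, 37 and 49, then 50, 37 and 55 (1.47, SE 0.47, adjusted p = 0.314). Both of these are best known as inhibitors of EGF receptors. Lrig1 shares its 3′ end with Slc25a26 on the opposite strand, which was listed at 100% to 155% of the Lrig1 value, so these reads cannot be assigned to 1 gene. The fourth, Dusp4, was at 0 in WT and at 6 or less in hTNFtg.

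In treated hTNFtg against WT SFs, 6 of the 13 inhibitors were raised and 0 were lowered, where 3.86% and 2.95% of all genes tested were. The median was 0.86. Dusp6 (1.76, SE 0.27, adjusted p = 0.0265), Errfi1 (1.30, adjusted p = 0.216, but 0.925 and not called without infliximab replicate 3) and Lrig1 (1.52, adjusted p = 0.0924) were raised there too. Spred2, a membrane inhibitor of RAF activation, had 5, 5 and 7 in WT, 6, 11 and 9 in untreated and 22, 17 and 25 in treated SFs (1.74 against WT, SE 0.44, adjusted p = 0.129). Spry1 had 7, 2 and 6 in WT and 14, 17 and 18 in treated SFs (1.64, adjusted p = 0.246). It is not particular to treated SFs: untreated hTNFtg against WT gave 1.625, though it was not called in the main fit. It was called there with all 9 libraries in one fit, robust eBayes, the replicate block and array quality weights (1.41). Il17rd, an inhibitor of FGF signalling, had 18, 7 and 23 against 35, 35 and 49 (1.38, adjusted p = 0.236), and missed the rule without WT replicate 2 (0.91) or infliximab replicate 3 (1.23). In untreated hTNFtg against WT SFs Il17rd was called with array quality weights (1.79) but not with edgeR (1.00). Infliximab against no treatment called 0 of the 13, and gave -0.45 for Dusp6, -0.85 for Errfi1 and 1.23 for Spred2 (each adjusted p = 0.803).

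Of 7 ERK-dependent transcription factors, 1 rose in hTNFtg against WT, namely Fos, with 22, 9 and 1 in WT, 118, 15 and 27 in hTNFtg and 28, 20 and 16 with infliximab (2.29, SE 0.97, adjusted p = 0.595), and the call was lost without hTNFtg replicate 1 (1.46) or 3, or WT replicate 2 (2.47) or 3 (1.31), with values up to 3.07 in the others. It was also lost with a pseudocount of 5 (1.71), with array quality weights (1.35) and in the fit of genes with a mean of at least 10. Treated SFs had 2 of the 7 raised against WT. Etv5, an ETS factor that follows FGF signalling in many tissues, had 189, 159 and 86 in WT, 249, 223 and 182 in untreated and 464, 333 and 327 in treated SFs (1.42, SE 0.29, adjusted p = 0.0699). All treated values lie above all untreated hTNFtg values, but the difference between treated and untreated SFs was 0.77 (adjusted p = 0.803), under the fold of the rule. Etv4 had 6, 12 and 15 in WT, 0, 33 and 72 in untreated and 46, 50 and 78 in treated SFs (2.34 against WT, SE 0.41, adjusted p = 0.0393), a call that was lost in the fit of all 9 libraries. In untreated hTNFtg against WT SFs Etv4 gave 0.26 with limma (adjusted p = 0.963), where hTNFtg replicate 1 is at 0 and so under its floor, but it was raised with edgeR on approximate reads (1.84, adjusted p = 0.0384). Over all 10 lists, 12 of 88 genes tested rose and 6 fell in hTNFtg against WT, 1 rose and 2 fell of 87 with infliximab, and 11 rose and 4 fell of 88 in treated hTNFtg against WT. Those shares are 13.6% and 6.82%, against 3.35% and 3.04% of all genes tested, then 1.15% and 2.3% against 1.49% and 0.936%, and 12.5% and 4.55% against 3.86% and 2.95%. The lists were chosen with results of these data known, so they do not stand apart as evidence.

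The genes most like the called genes over the 9 libraries were taken among 8631 genes with a mean of at least 50, by Pearson correlation of log2 values, as a description. For Hgf they were Gldn (r = 0.976), Itsn1 (0.969) and 2610001J05Rik (0.958). For Vegfc they were Ptgs2 (0.973), which codes for cyclooxygenase-2, Sgk1 (0.97) and Rnf19b (0.969). Ptgs2 had 28, 20 and 13 in WT, 125, 155 and 214 in hTNFtg and 77, 74 and 189 with infliximab. For Fgf7 they were Bmper (0.983), Dstn (0.971) and Ankrd11 (0.969). Bmper, a secreted BMP-binding protein, had 56, 41 and 62 in WT, 262, 155 and 75 in hTNFtg and 133, 91 and 109 with infliximab. Like Fgf7, it was highest in hTNFtg replicate 1. The 9 libraries share 3 groups and differ in depth, so such values carry no test.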

How the data were processed

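RNA of cultured SFs was sequenced with the QuantSeq 3′ kit on an Ion Proton in 9 libraries. The authors mapped reads to mm10 with TopHat2, mapped leftover reads with Bowtie2, counted them per gene with GenomicRanges and normalized them through metaseqR and DESeq, with versions not given in the sources used here. The deposited value used is a score, a normalized count that the authors rounded to integers. For the shallow hTNFtg library (replicate 1), the authors' rounding leaves a signal in clear steps of 6.23, and 100% of its low values lay on a rounded multiple of that step. Fold changes and p-values that the authors deposited for their own comparisons, and 24 other per-sample columns (log2 and rpgm values), were not used. Untreated hTNFtg values are identical in both tables, which allows treated and WT libraries to be compared.

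Comparisons used limma 3.58.1 (lmFit, eBayes with trend) in R 4.3.3 on log2 of the normalized count plus 1. Genes at 0 in all 6 libraries of a comparison were left out, and p-values were adjusted over the rest (Benjamini-Hochberg). Approximate reads are values divided by the worth of 1 read, estimated from gaps between values. The scripts were tested on simulated data. The estimated worth of a read was missed there for a value slightly under that of hTNFtg replicate 3, so the reads of this library, and what rests on them, are the least sure. Alternatives were pseudocounts of 5 and 0.5, a mean of at least 10, quantile normalization, median-ratio rescaling, array quality weights, robust eBayes, a replicate block, all 9 libraries in one fit, edgeR 4.0.16 (quasi-likelihood) on approximate reads, and each library left out. Named pathway genes are those called with a mean of at least 10, at most 12 per comparison by size of change. Other genes named, and the ratios, were chosen after their values were seen. The 9 genes and the lists were chosen with earlier results of these data known. Coordinates are from the deposited tables (mm10), and exon overlaps from the GENCODE mouse annotation of that build.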

Additional observations from a re-analysis of the deposited data

How the results depend on the processing

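At an adjusted p under 0.05 in place of the cutoffs of the study, 1 of the 9 genes and 3 pathway genes were called in hTNFtg against WT, 0 and 0 with infliximab, and 0 and 6 in treated hTNFtg against WT. In limma with the replicate block, 0 genes of the whole table passed that threshold in each comparison. The 3 pathway genes, Fgfr2, Fgfr3 and Cd44, then had an adjusted p of 0.505, 0.505 and 0.478. In simulated libraries for hTNFtg against WT, the block found 0% of 200 genes changed 4-fold at that threshold. The main fit found 44.5% of them. The 0 of the block in that comparison thus could not tell changed genes from unchanged ones. In treated hTNFtg against WT, leaving out a library left 0 genes of the whole table raised at it and at most 1 lowered. In the fit of genes with a mean of at least 10 alone, 1 pathway gene was called with infliximab, Spred2 (1.23), and Fgf13 was not. Leaving out a library gave 1 to 2 of the 9 genes and 3 to 6 pathway genes called with infliximab. Pathway calls numbered 6 when hTNFtg replicate 1 was left out and 5 when hTNFtg replicate 3 was. Calls over the whole table rose as well, from 426 raised and 267 lowered of 28540 genes in the main fit. They were 481 and 930 of 28277 without hTNFtg replicate 1, and 700 and 415 of 27066 without hTNFtg replicate 3. Directions that turned belong to genes that were not called. In hTNFtg against WT, Fgf10 gave 0.0566 with array weights, 0.651 with edgeR and -1.38 to 0.812 leaving out libraries, and Vegfa gave 0.383 with array weights and -0.354 to 0.189 leaving out libraries. With infliximab, Fgf10 gave -0.283 with edgeR and -0.422 to 1.77 leaving out libraries, Vegfa -0.112 with array weights, Fgf2 -0.618 to 0.27 and Pdgfra -0.136 to 0.178 leaving out libraries. In treated hTNFtg against WT, Met gave -0.00284 with a pseudocount of 5, -0.0828 with quantile normalization, -0.192 with array weights, -0.0703 with edgeR and -0.255 to 0.434 leaving out libraries. The cause of these changes was not tested. Of 426 values for the 9 genes, 400 kept direction and side of the rule.

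Replicate numbers did not clearly pair the libraries (correlations of same-numbered deviations were -0.147 to 0.353, and not every library was closest to its own number). Between untreated and treated hTNFtg libraries the same-numbered values were all positive, at 0.07, 0.197 and 0.265, where the other pairs gave -0.256 to 0.126. The replicate block called 3, 1 and 1 of the 9 genes and 19, 2 and 13 pathway genes in the 3 comparisons. Over the whole table it raised 855 and lowered 804 of 28522 genes in hTNFtg against WT. With infliximab these were 374 and 231 of 28540, and in treated hTNFtg against WT 968 and 730 of 28243. Under the block Gab1 in hTNFtg against WT, Fgf13 with infliximab, and Tmprss13 and Pdgfb in treated hTNFtg against WT were not called. On approximate reads edgeR had 588 genes raised and 335 lowered at an adjusted p under 0.05 in hTNFtg against WT, where the main fit had 67 and 70. The replicate block had 0 and 0. Leaving out a library gave from 1 and 0 (without WT replicate 2) to 14 and 30 (without hTNFtg replicate 3). Depth limits Met, Fgf10 and every low value in hTNFtg replicate 1.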
